A study of Gasterosteus aculeatus with 16 samples.

Results

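The linker histone H1 genes and the H2A gene H2AFJ are described here by their transcript levels in whole threespined stickleback embryos. The set held 4 genes of the 17440 with a logCPM value and of the 22456 gene models with an FPKM value. Of the 4, 3 carry the name HIST1H1A, a linker histone, and the other carries the name H2AFJ, an H2A core histone. The names are those the study gave, and whether H2AFJ encodes a variant form of H2A was not examined. All 4 were taken from the study's own list of genes with different transcript levels after maternal exposure to a predator. ENSGACG00000001268 and ENSGACG00000002859 entered that list through its comparison of FPKM values, and ENSGACG00000014874 and ENSGACG00000002746 (H2AFJ) through its comparison of read counts. The difference between the groups is therefore what selected these genes, and it is given below as a description from which no call is drawn.

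RNA was sequenced from 16 clutches, each a pool of whole embryos of 1 mother collected 3 days post-fertilization. In all, 8 clutches came from mothers under simulated predation risk, females pursued once a day with a rubber sculpin, and 8 came from control mothers without that treatment. All mothers came from 1 wild population and were caught as juveniles, and all eggs were fertilized in the laboratory with sperm of males housed apart. Exposure was assigned to tanks of females and the labels do not name the tanks, so clutches were treated as independent. The first number of the clutch name repeats among control clutches (15_14, 15_2 and 15_5, and 5_14 and 5_21) but not among exposed clutches. The labels do not say what this number stands for, and it was not used in any fit. The sex of the pooled embryos was unknown. Embryos of predator-exposed mothers are also called maternally-stressed embryos below. In a pool of whole embryos, fewer cells that express a gene and less RNA per cell cannot be told apart.

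Linker histones bind DNA where it enters and leaves the nucleosome and help to fold chromatin, while H2A proteins are part of the nucleosome core itself. Early embryos of fish and frogs use a maternal linker histone at first and later exchange it for somatic H1 types. Most histone genes are transcribed mainly while DNA is replicated, and their mRNAs end in a stem-loop in place of a poly(A) tail. The libraries here were made from RNA selected with oligo(dT), which retains polyadenylated transcripts, so the levels below describe the transcripts that this selection kept. Histone genes also occur as many similar copies, so reads of near-identical copies may be shared out differently by different counting methods, and the levels of all 4 genes carry that uncertainty.

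In the BROADS1 assembly the 3 HIST1H1A genes lay at separate loci. ENSGACG00000001268 was on scaffold_224 (156875 to 157537, a span of 663 nt), ENSGACG00000002859 on groupXIX (2399083 to 2399992, 910 nt) and ENSGACG00000014874 on scaffold_561 (7555 to 8169, 615 nt). They are called below the scaffold_224, groupXIX and scaffold_561 H1 genes. H2AFJ was also on groupXIX, the stickleback sex chromosome (2300836 to 2301309, 474 nt), 97773 nt from the groupXIX H1 gene.

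Between 8950867 and 12765406 reads fell in genes per clutch (median 11697268), so that a count of 0 reads would allow up to 3 reads, or 0.235 to 0.335 CPM (reads per 1000000 reads in genes), for counting error only. Mitochondrial reads made up 1.14 ± 0.380% of reads in exposed clutches and 0.692 ± 0.0918% in control clutches (mean ± SD, n = 8 each). The mean level of 24 structured non-coding RNAs on the study's list, in SD units, was 0.529 ± 1.05 in exposed and -0.529 ± 0.416 in control clutches, and was above 0 in 5 exposed clutches and 1 control clutch (15_2). These RNAs were listed because they differed between the groups, so this difference follows from their selection. The part of the mitochondrial share in the levels of the 4 histone genes was not tested. With the structured RNA level as a covariate, the log2 fold changes of the 4 genes on the logCPM scale were -0.64 for the scaffold_224 H1 gene, -0.54 for the groupXIX H1 gene, -0.38 for the scaffold_561 H1 gene and 0.64 for H2AFJ, against -0.58, -0.40, -0.29 and 0.48 without it. On log2(FPKM + 1), in the same order, they were -0.58, -0.59, -0.92 and 0.69 with the covariate. Without it they were -0.62, -0.49, -0.75 and 0.71, so the scaffold_224 gene and H2AFJ moved slightly toward no change on that scale. Because this contrast also selected the RNAs of the covariate, the adjusted values cannot separate their part from that of exposure.

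The first question was how abundant these transcripts were relative to each other. FPKM values (fragments per kilobase of transcript, scaled to 1000000 mapped fragments) correct for gene length and allow that comparison. The groupXIX H1 gene was the most abundant (15.1 ± 5.72 FPKM over 16 clutches, SD), followed by the scaffold_224 H1 gene (12.6 ± 5.45), H2AFJ (8.98 ± 3.80) and the scaffold_561 H1 gene (3.40 ± 1.48). By mean FPKM they stood at the 79.5th, 76.6th, 70.7th and 51.0th percentile of all 22456 gene models. By mean CPM, which is not corrected for length, they stood lower, at the 51.6th, 36.9th, 20.7th and 7.36th percentile of the 17440 genes with a logCPM value. This smaller set leaves out the models without a logCPM value, so the percentiles on the different scales are not directly comparable.

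Within clutches, differences in log2(FPKM + 1) were compared with a two-sided exact sign-flip permutation test, adjusted over the 6 pairs of genes. The groupXIX H1 gene exceeded the scaffold_224 H1 gene by 0.28 ± 0.34 (mean ± SD, higher in 12 of 16 clutches; exact permutation test, adjusted p = 0.00201). It exceeded H2AFJ by 0.74 ± 0.82 (14 of 16 clutches; exact permutation test, adjusted p = 0.00165). That difference was 1.34 ± 0.71 in control clutches and only 0.14 ± 0.32 in exposed clutches (higher in 6 of 8). This contrast follows from the way the genes were chosen. The groupXIX H1 gene exceeded the scaffold_561 H1 gene by 1.87 ± 0.26 (16 of 16 clutches; exact permutation test, adjusted p = 9.2e-05). The scaffold_561 gene was thus the least abundant of the 3 H1 genes in every clutch, below the scaffold_224 gene by 1.60 ± 0.40 (16 of 16 clutches; exact permutation test, adjusted p = 9.2e-05). These are the smallest values the test can give, adjusted over the pairs.

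The neighbours in the middle of this order were less clear. The mean difference between the scaffold_224 H1 gene and H2AFJ was not told apart from 0, at 0.46 ± 0.97 with the H1 gene higher in 10 of 16 clutches (exact permutation test, adjusted p = 0.0770). That difference was 1.13 ± 0.77 in control clutches and -0.20 ± 0.66 in exposed clutches, a contrast that follows from the way the genes were chosen. On CPM per kilobase of gene span, log2 with 0.1 added, the same pair differed by 0.99 ± 1.46 (exact permutation test, adjusted p = 0.0127). H2AFJ exceeded the scaffold_561 H1 gene by 1.13 ± 0.91 (13 of 16 clutches; exact permutation test, adjusted p = 0.00110), in 8 of 8 exposed and 5 of 8 control clutches. That difference was 1.86 ± 0.40 in exposed clutches and only 0.40 ± 0.64 in control clutches. The split follows from the way the genes were chosen, so the pooled test draws in part on that choice.

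The second question was how each gene stood in maternally-stressed embryos against embryos of control mothers. All 3 H1 genes had lower means and H2AFJ a higher mean in exposed clutches. That each gene differed between the groups follows from the selection of the genes. Because this contrast chose the genes, counts of them past a threshold are given only beside the same share of all genes, and nothing is read from them. By limma across all genes, 1 of the 4 genes was past FDR 0.1 on logCPM, where 0.516% of all 17440 genes were past it (0.413% lower and 0.103% higher in exposed clutches). On log2(FPKM + 1), 1 of the 4 was past FDR 0.05, where 0.309% of 21028 gene models were past it (0.266% lower and 0.0428% higher). In both cases it was the scaffold_561 H1 gene. Over all genes the median log2 fold change was -0.05 on logCPM and -0.08 on FPKM. Most genes had a log2 fold change below 0 (11481 of 17440 on logCPM and 15161 of 21028 models on FPKM).

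The scaffold_224 H1 gene ranged in CPM from 1.57 (median 5.28) to 8.17 in exposed clutches, from 18 to 98 reads. In control clutches it ranged from 5.48 (median 8.23) to 17.1 CPM, from 67 to 153 reads. The lowest value was that of exposed clutch 17_10 and the highest that of control clutch 15_2, all 8 exposed clutches lay below the control median, and the groups overlapped. Mean CPM was 5.20 ± 2.12 in exposed and 9.18 ± 3.80 in control clutches (SD, n = 8 each), a ratio of 0.567. On FPKM the means were 9.74 ± 3.38 and 15.5 ± 5.77, a ratio of 0.629, with 7 of 8 exposed clutches below the control median. The log2 fold change was -0.58 (SE 0.187) on logCPM and -0.62 (SE 0.229) on FPKM.

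The groupXIX H1 gene had most of the reads counted over the 3 H1 genes described here, before correction for length. It ranged from 7.68 (median 10.3) to 17.8 CPM in exposed clutches (98 to 191 reads) and from 8.58 (median 16.8) to 29.9 CPM in control clutches (105 to 268 reads). Most exposed clutches sat in a narrow band near their median. Controls were spread from clutches 15_14 (8.58 CPM) and 21_14 (9.70 CPM) up to clutch 15_2, far above the rest. The means were 11.3 ± 3.27 and 16.4 ± 6.60 CPM (ratio 0.690), and 12.2 ± 3.00 and 18.1 ± 6.40 FPKM (ratio 0.673). Exposed clutch 3_10, at 17.8 CPM, was the only one above the control median. The log2 fold change was -0.40 (SE 0.179) on logCPM and -0.49 (SE 0.185) on FPKM, and without control clutch 15_2 it was -0.28 and -0.38.

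The scaffold_561 H1 gene was counted from very few reads. In exposed clutches it had 4 to 9 reads, from 0.313 (median 0.442) to 0.892 CPM, and in control clutches 6 to 19 reads, from 0.529 (median 1.34) to 2.12 CPM. On CPM the groups overlapped through control clutch 21_14, while on FPKM the highest exposed clutch (2.91) was below the lowest control clutch (3.27). It was thus 1 of the 4 genes without overlap on FPKM, where 0.195% of all gene models tested were lower in every exposed clutch than in any control clutch and 0.00951% higher. On CPM 0 of the 4 were without overlap, and of all genes 0.149% were lower and 0.0229% higher without overlap. The mean was 0.531 ± 0.206 CPM in exposed and 1.29 ± 0.468 CPM in control clutches, a ratio of 0.410, and 2.28 ± 0.559 against 4.53 ± 1.21 FPKM, a ratio of 0.502. Because the deposited logCPM carries a floor of 2.77 CPM, larger than any value of this gene, its log2 fold change on that scale was only -0.29 (SE 0.0699), against -1.28 for the log2 ratio of mean CPM and -0.75 (SE 0.137) on log2(FPKM + 1).

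H2AFJ differed in the other direction. It ranged from 1.83 (median 2.94) to 6.43 CPM in exposed clutches (22 to 69 reads) and from 0.559 (median 1.56) to 3.49 CPM in control clutches (5 to 38 reads). All 8 exposed clutches lay above the control median and 3 of them (3_10, 6_21 and 10_5) above every control clutch, so the groups overlapped. The means were 3.67 ± 1.69 and 1.84 ± 1.14 CPM (ratio 2.00) and 11.0 ± 2.85 and 6.94 ± 3.64 FPKM (ratio 1.59). The log2 fold change was 0.48 (SE 0.159) on logCPM, 1.00 for the log2 ratio of mean CPM and 0.71 (SE 0.255) on log2(FPKM + 1). Control clutch 15_2, highest in each of the 3 H1 genes, was lowest in H2AFJ on CPM.

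**Figure D1:**
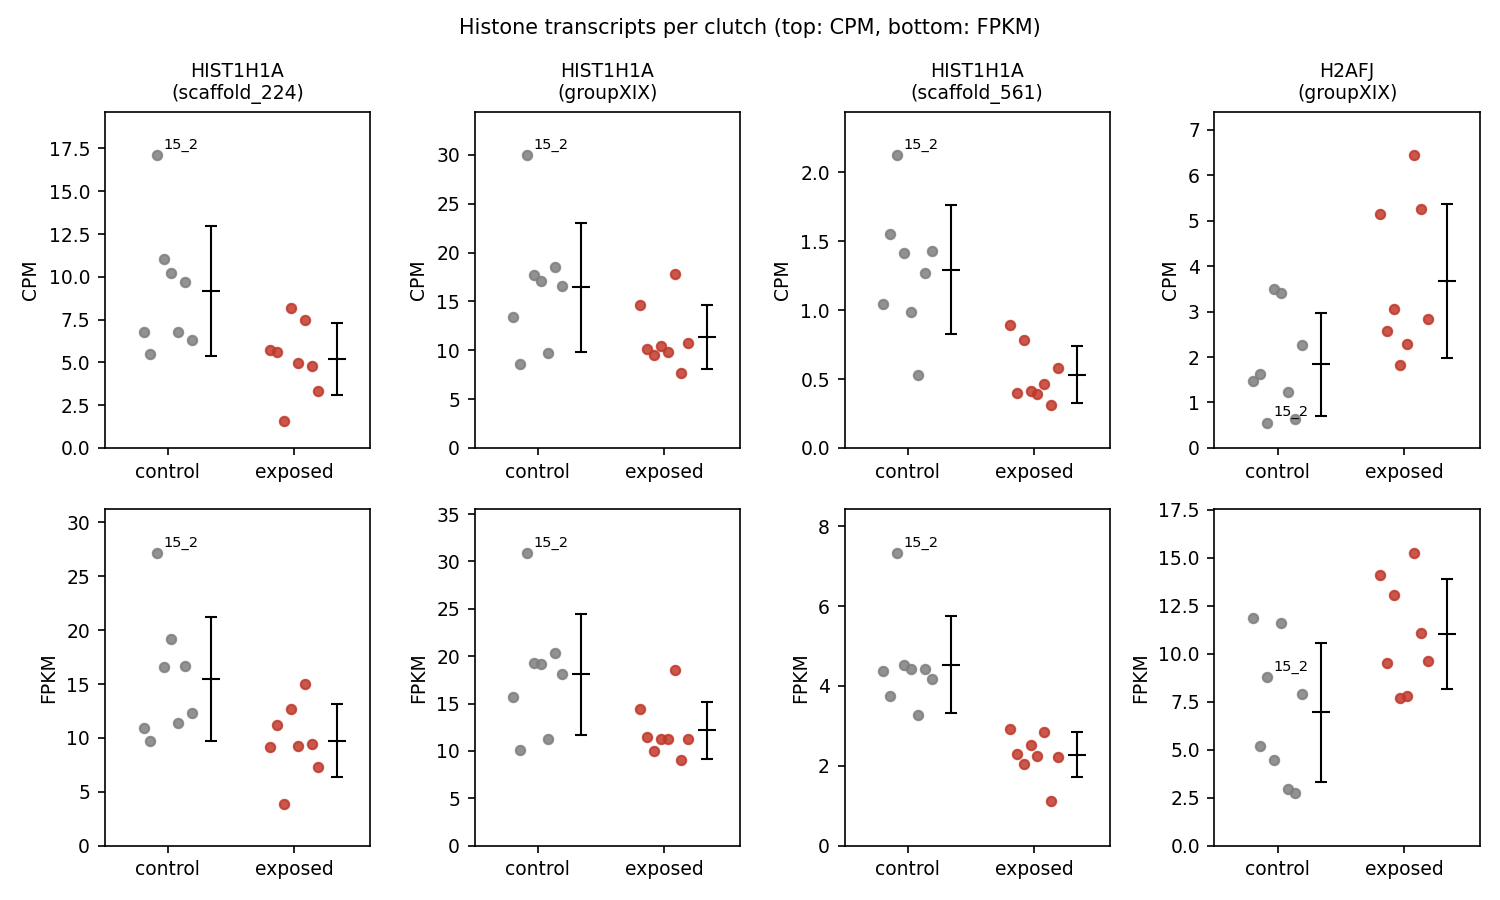
Each point is 1 clutch, with CPM in the top row and FPKM in the bottom row for the 4 histone genes, control clutches in grey and exposed clutches in red. Black bars give the mean ± SD of 8 clutches, and the groups are separate only for the scaffold_561 H1 gene on FPKM (exposed at most 2.91, control at least 3.27).

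Summed over the 3 H1 genes, exposed clutches had 17.1 ± 4.68 CPM (11.8 to 25.7) and control clutches 26.9 ± 10.6 CPM (15.6 to 49.2). In both groups most of the reads were those of the groupXIX gene. The groupXIX gene took 66.7 ± 7.92% of it in exposed and 60.7 ± 4.09% in control clutches, the scaffold_224 gene 30.0 ± 9.24% and 34.2 ± 4.11%, and the scaffold_561 gene 3.29 ± 1.58% and 5.09 ± 2.14%. In FPKM the sum was 24.2 ± 6.15 in exposed and 38.1 ± 13.1 in control clutches. On this scale, which corrects for length, the groupXIX gene took 50.9 ± 6.36% in exposed and 47.3 ± 3.39% in control clutches. The scaffold_224 gene took 39.6 ± 8.05% and 40.5 ± 3.48%, and the scaffold_561 gene 9.57 ± 2.16% and 12.25 ± 1.88%. Other H1 genes were not summed.

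The third question was whether the genes varied together among clutches of the same group, which the selection did not use. Deviations from the group means were correlated over 16 clutches, with a permutation test within groups and adjustment over the 6 pairs. The scaffold_224 and groupXIX H1 genes varied together on logCPM (r = 0.69, permutation test, p = 0.00400, adjusted p = 0.0240; Spearman rho = 0.71, permutation test, adjusted p = 0.0254). Within control clutches r was 0.89 (exact permutation test, adjusted p = 0.0158) and within exposed clutches 0.44 (exact permutation test, adjusted p = 0.545). The difference between these groups was not tested.

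This relation rested in part on control clutch 15_2, the highest in both genes. Without 15_2 r was 0.55 (permutation test, adjusted p = 0.210), and without 15_2 and exposed clutch 17_10, the clutches farthest from the median, it was 0.61 (permutation test, adjusted p = 0.0907), so the relation no longer passed. Clutch 15_2 also had the fewest reads in genes (8950867). Over the 16 clutches the within-group correlation with reads in genes was -0.48 for the scaffold_224 gene and -0.71 for the groupXIX gene. Without 15_2 these values were -0.22 and -0.54. Within exposed clutches they were -0.12 and -0.83, and within control clutches -0.79 and -0.65. The part of depth in the relation between the genes was not tested. Of all 17439 other genes, 0.195% correlated more strongly with the scaffold_224 H1 gene than the groupXIX gene did.

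For the scaffold_561 H1 gene the answer differed between the deposited scales. On logCPM it correlated with the groupXIX gene at r = 0.55 (rho = 0.42, permutation test, adjusted p = 0.163 for r and 0.390 for rho), or at r = 0.76 without control clutch 15_14 (permutation test, adjusted p = 0.0326) and 0.30 without 15_2, and with the scaffold_224 gene at r = 0.17 (rho = -0.01, permutation test, adjusted p = 0.998 for r). On log2(FPKM + 1) it followed the groupXIX gene closely, at r = 0.83 (permutation test, adjusted p = 0.00048; rho = 0.94, permutation test, adjusted p = 6e-05), and r was 0.73 without clutch 15_2. The logCPM of the scaffold_561 gene correlated within groups with reads in genes at r = -0.52, or -0.24 without 15_2. Within exposed clutches that r was -0.76, and within control clutches -0.44. The part of depth in the relation of the scaffold_561 gene to the groupXIX gene was not tested. Cufflinks, which made the FPKM values, divides reads that match several loci among them, so FPKM values of similar genes are not independent of each other. On FPKM the scaffold_224 and groupXIX genes gave r = 0.73 (permutation test, adjusted p = 0.00477), or 0.63 without 15_2, and the scaffold_224 and scaffold_561 genes r = 0.56 (permutation test, adjusted p = 0.0687; rho = 0.62, permutation test, adjusted p = 0.0358). For that last pair r was 0.85 within control clutches (exact permutation test, adjusted p = 0.0122) and 0.29 within exposed clutches (exact permutation test, adjusted p = 0.612), and 0.37 over both groups without 15_2.

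H2AFJ did not vary detectably with any H1 gene. On logCPM r was 0.00 with the scaffold_224 gene, 0.11 with the groupXIX gene and -0.06 with the scaffold_561 gene (permutation tests, adjusted p between 0.998 and 0.999). Their rank correlations lay between -0.12 and 0.04. On FPKM r lay between 0.07 and 0.37 (permutation tests, adjusted p between 0.329 and 0.790). Without control clutch 15_2, r on logCPM was 0.23 with the scaffold_224, 0.42 with the groupXIX and 0.19 with the scaffold_561 gene (permutation tests, adjusted p between 0.384 and 0.507). With the groupXIX gene it was 0.52 within exposed and -0.15 within control clutches. The logCPM of H2AFJ correlated within groups with reads in genes at r = -0.24, or -0.63 without 15_2, and the part of depth was not tested.

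**Figure D2:**
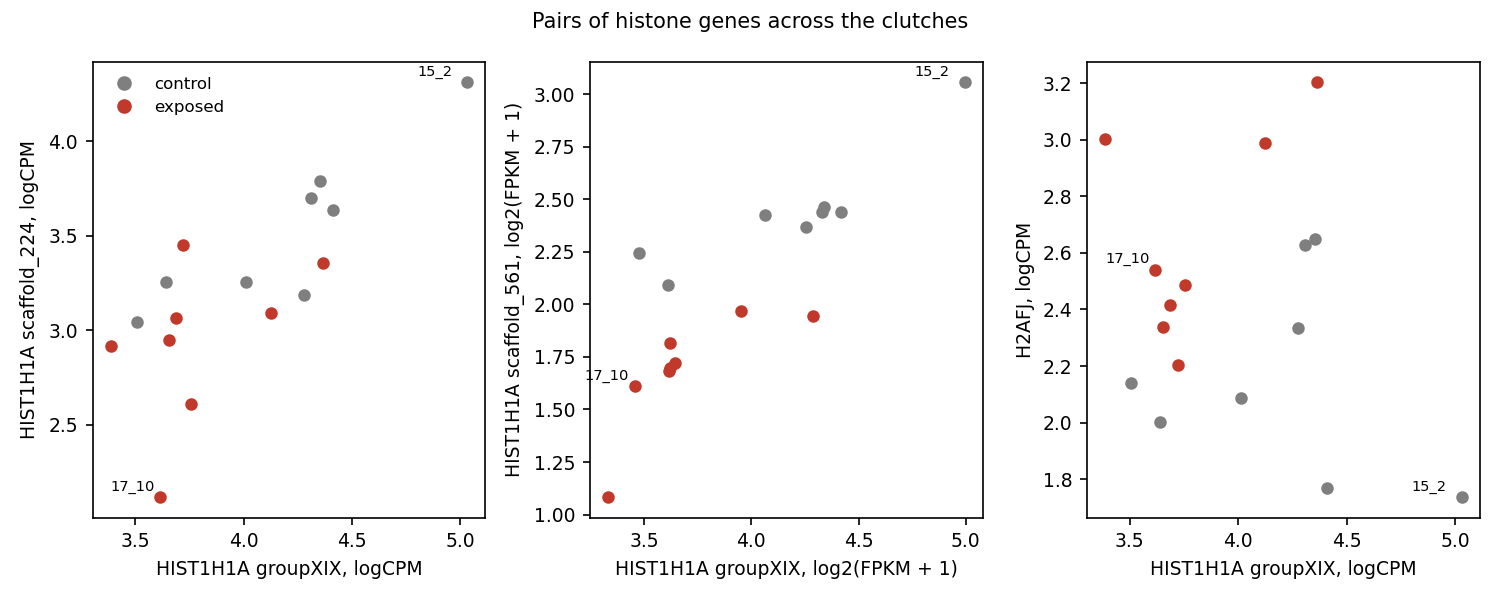
Each point is 1 clutch (control grey, exposed red), showing the scaffold_224 H1 gene against the groupXIX H1 gene on logCPM, the scaffold_561 against the groupXIX H1 gene on log2(FPKM + 1), and H2AFJ against the groupXIX H1 gene on logCPM. Control clutch 15_2 is at the upper right of the first 2 panels and at the lower right of the last, and the within-group r values were 0.69, 0.83 and 0.11.

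The spread within groups was wide for 3 of the 4 genes. The SD of logCPM within groups was 0.42 for the scaffold_224 H1 gene, 0.40 for the groupXIX H1 gene and 0.36 for H2AFJ, at the 97.3rd, 96.9th and 94.4th percentile of all genes. The scaffold_561 H1 gene had an SD of 0.13 (21.1st percentile), on a scale where the floor compresses genes of few reads. On log2(FPKM + 1) its SD was 0.28 (75.5th percentile).

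The extent to which CPM and FPKM described the same transcripts was then examined, since the list drew on both. The ratio of FPKM to CPM should be nearly constant between clutches for a gene whose reads are all assigned alike, and its largest value was 1.30 times its smallest for the median of 16863 genes. For the groupXIX H1 gene the ratio ran from 0.987 to 1.18, a 1.20-fold range, and only 2.63% of genes had a smaller range. The scaffold_224 gene ran from 1.50 to 2.44 (1.62-fold) and the scaffold_561 gene from 2.41 to 6.18 (2.56-fold, wider than 95.5% of genes).

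H2AFJ had the widest range of this ratio among the 4 genes. Its ratio ran from 1.27 in control clutch 15_5 to 15.7 in control clutch 15_2, a 12.3-fold range that exceeded 99.8% of genes. Clutch 15_5 had the highest control CPM of H2AFJ (3.49, from 37 reads) but only 4.45 FPKM, whereas clutch 15_2 had the lowest CPM (0.559, from 5 reads) and 8.77 FPKM. The order of control clutches thus depended on the scale, and within groups the 2 scales correlated at r = 0.45 for H2AFJ and 0.63 for the scaffold_561 H1 gene, against 0.97 and 0.99 for the scaffold_224 and groupXIX genes. By rank the scaffold_561 gene was lowest, with rho = 0.39 against 0.55 for H2AFJ, 0.83 for the scaffold_224 gene and 0.92 for the groupXIX gene. In exposed clutches the H2AFJ ratio stayed between 2.11 and 4.29.

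**Figure D3:**
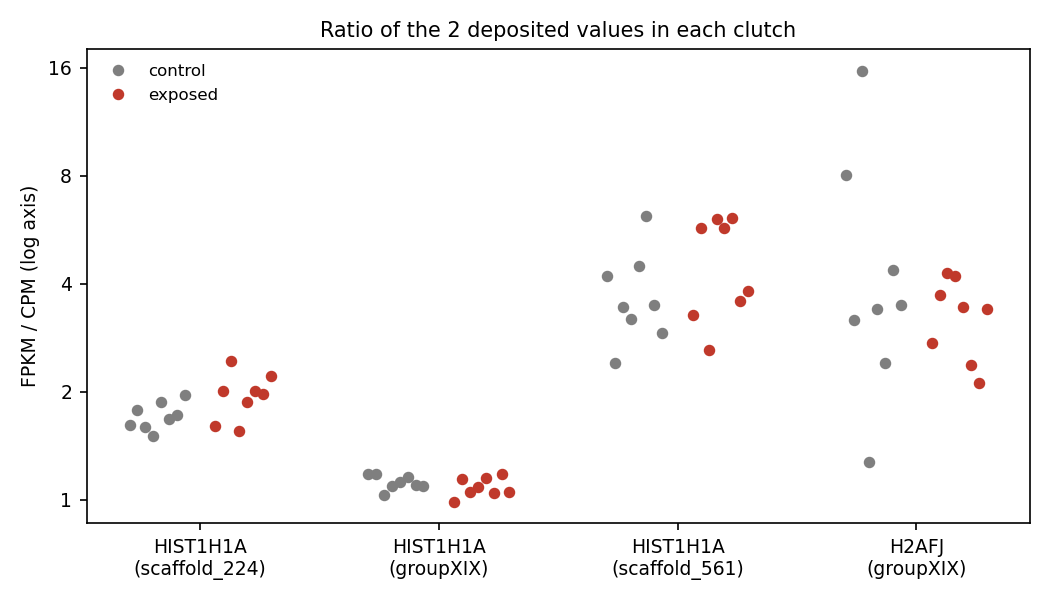
FPKM divided by CPM in each clutch on a log axis, for the 4 histone genes, with control clutches in grey and exposed clutches in red. The groupXIX H1 gene keeps nearly the same ratio in all clutches (0.987 to 1.18), whereas H2AFJ spreads from 1.27 to 15.7 among control clutches.

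Histone genes are often clustered, so the gene models around the 4 genes were examined for the same contrast. The values of these models were not used to select the 4 genes, although ENSGACG00000002729 among them is also on the study's list. Within 20 kb lay 19 other gene models, of which 12 had logCPM values. None of the 12 was past FDR 0.1 on logCPM by limma (2 had an unadjusted p under 0.05, as did 2840 of all 17440 genes, smallest adjusted p = 0.273) and none of the 19 past FDR 0.05 on FPKM (1 had an unadjusted p under 0.05, as did 4382 of all 21028 models, smallest adjusted p = 0.205). No neighbour passed with voom on whole reads either. The median log2 fold change of the neighbours was -0.01 on logCPM and -0.04 on FPKM, near the medians of all genes.

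Individual neighbours did not share the direction of the histone gene beside them in any regular way. On the FPKM scale ENSGACG00000001269, 910 nt from the scaffold_224 H1 gene and at a mean of 9.60 FPKM, had a log2 fold change of -0.04 (SE 0.255). ENSGACG00000002860, 547 nt from the groupXIX H1 gene, had 0.04 (SE 0.317), and ENSGACG00000014877, 384 nt from the scaffold_561 H1 gene, had 0.12 (SE 0.259). Beside H2AFJ, the model ENSGACG00000002742 at 712 nt had -0.14 (SE 0.243). Farther from H2AFJ, ENSGACG00000002729, itself on the study's list and 18061 nt away, had -0.69 (SE 0.302) at a mean of only 0.615 FPKM. ENSGACG00000002731 at 14518 nt had 0.53 (SE 0.313). None of these models has a gene name in the sources used here.

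Of the neighbours 7 had no logCPM value, and 6 of those had a mean above 1 FPKM, so the tables differed in the loci around these genes that they cover. Several neighbours also shared exact span lengths. A span of 312 nt occurred in 3 neighbours and in 23 models of the whole assembly, 372 nt in 2 and 11, 411 nt in 2 and 10, and 414 nt in 2 and 9. Among neighbours, ENSGACG00000014877 varied with the scaffold_561 H1 gene within groups at r = 0.61 on logCPM and 0.51 on FPKM. ENSGACG00000014871, at a mean of only 0.169 CPM, gave r = 0.34 on logCPM and 0.75 on FPKM with the same gene. In the other direction, ENSGACG00000002729, at a mean of only 0.270 CPM and 0.615 FPKM, gave r = -0.30 on logCPM and -0.74 on FPKM with H2AFJ. These values are given as descriptions over 16 clutches.

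**Figure D4:**
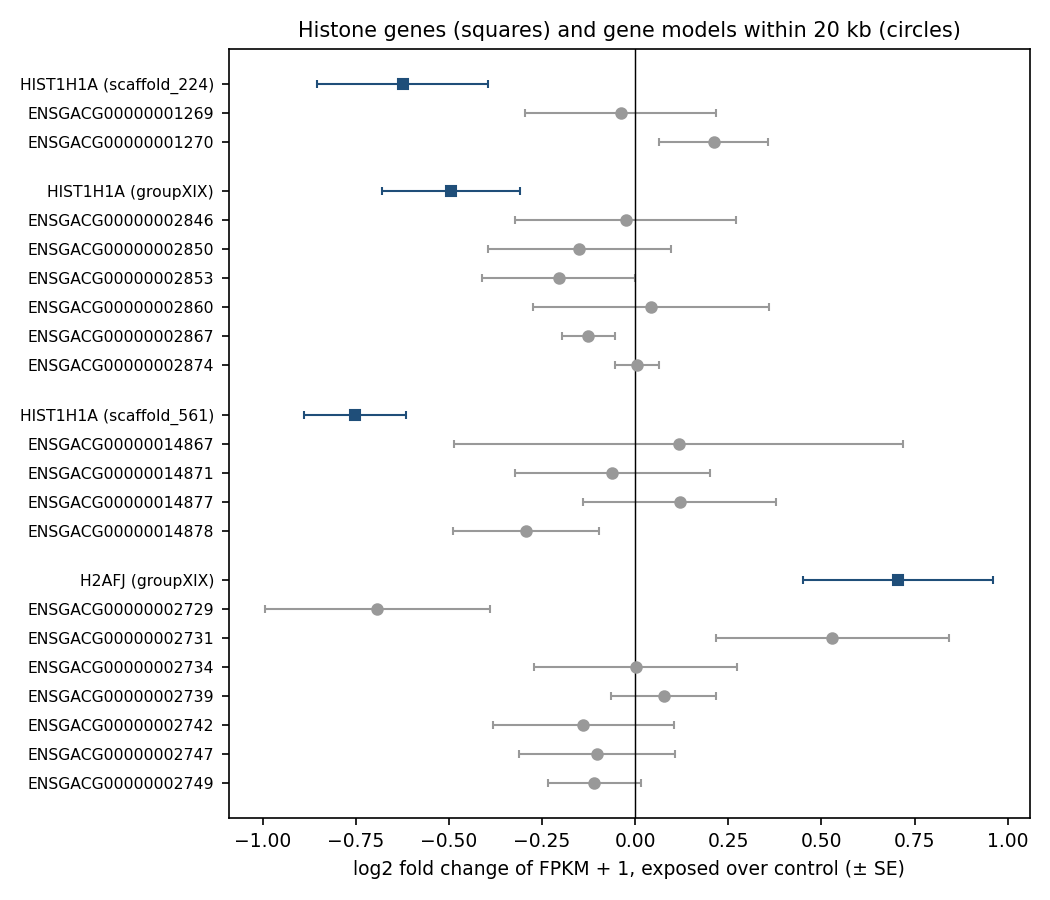
Log2 fold change of FPKM + 1 (exposed over control, ± SE from limma, n = 8 per group) for the 4 histone genes (squares) and the 19 gene models within 20 kb of them (circles). The histone genes lie at -0.62, -0.49, -0.75 and 0.71, and no neighbour was past FDR 0.05.

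The genes whose deviations from the group means were most like those of each histone gene were sought among 15995 genes with a mean of at least 1 CPM, and are given as descriptions over 16 clutches. For the groupXIX H1 gene the most alike were ENSGACG00000002702 (r = 0.84, groupXIX, 2246085 to 2246498, 414 nt) and ENSGACG00000013915 (r = 0.82, groupXIX, 615 nt). The first has one of the recurrent neighbour spans, and the second has the same span as the scaffold_561 H1 gene. The third was ENSGACG00000005106 (r = 0.82, groupV). For the scaffold_224 H1 gene they were ENSGACG00000008907 (r = 0.84, groupXIX), ENSGACG00000002909 (r = 0.81, groupXXI) and ENSGACG00000013097 (r = 0.79, groupVIII).

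For the scaffold_561 H1 gene the most alike were ENSGACG00000006232 (r = 0.84, groupXIX), ENSGACG00000008086 (r = 0.81, groupXIX) and ENSGACG00000005072 (r = 0.79, groupXII). For H2AFJ they were ENSGACG00000008595 (r = 0.82, groupV), ENSGACG00000000087 (r = 0.79, scaffold_95) and ENSGACG00000006584 (r = 0.79, groupXII). The most alike gene of each H1 gene was on groupXIX and that of H2AFJ on groupV, while the lower ranks lay on several chromosomes. The share of all searched genes on groupXIX was not computed, so nothing is read from these positions. How high the best r would be by chance among so many genes was not tested. None of these 12 genes is on the study's list, and none has a name in the sources used here.

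Other chromatin genes could be named only where the study's list gives a name, so those available had been chosen on these same clutches and are not independent evidence of a direction. They were CBX1, a heterochromatin protein that binds methylated histone H3, DNMT3A and DNMT3B, which methylate DNA de novo, and HIRA, a chaperone that deposits histone H3.3. The list labels them CBX1 (2 of 2), DNMT3A (2 of 2), DNMT3B (2 of 3) and HIRA (5 of 5). Each is thus 1 of several copies, and the other copies were not examined. By limma 1 of these 4 genes (CBX1) was past FDR 0.1 on logCPM, as were 0.516% of all genes, and 0 were past FDR 0.05 on FPKM, as were 0.309% of all gene models. All 4 had an unadjusted p under 0.05 on both scales, as did 2840 of 17440 genes on logCPM and 4382 of 21028 models on FPKM, and since these clutches chose the 4 genes nothing is read from these counts. Their median log2 fold change was -0.42 on logCPM, against -0.05 over all genes. Mean CPM in exposed and control clutches was 49.7 ± 9.02 and 65.4 ± 6.78 for CBX1, and 24.2 ± 6.36 and 33.6 ± 6.62 for DNMT3A. It was 85.5 ± 21.7 and 117.5 ± 19.6 for DNMT3B, and 28.3 ± 5.74 and 36.2 ± 2.61 for HIRA (SD, n = 8 each). All 4 had lower means in exposed clutches, as the H1 genes did. On logCPM 11481 of all 17440 genes had a log2 fold change below 0, so nothing is read from this shared direction. Within groups, the correlations of CBX1, DNMT3A, DNMT3B and HIRA with the 4 histone genes lay between -0.26 and 0.21.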

How the data were processed

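RNA was selected with oligo(dT) and sequenced from pools of whole embryos of 16 clutches. Trimmed reads were aligned by the authors to BROADS1 (TopHat2 2.0.8) and assigned to Ensembl genes. Each deposited logCPM value is the log2 of a floor of 2.77 CPM plus the CPM of the gene, and whole reads were recovered from it to within 3.81e-09 of a read (100% of values whole, at a tolerance of 0.001 read). For the FPKM files the authors used Cufflinks 2.1.1, and the 2 columns of FPKM bounds in each file were not used. Depth was 8950867 to 12765406 reads in genes. The deposited values are on log2 and FPKM scales, so limma was the main test, with voom on the recovered reads as an alternative, and the count test of the study was not run here.

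The contrast of exposed and control clutches was fitted with limma 3.58.1 in R 4.3.3 (eBayes with an intensity trend, two-sided, Benjamini-Hochberg adjustment over all genes) on logCPM and on log2(FPKM + 1), the latter for models above 0 in at least 2 clutches. Fold changes on these scales understate those of weak genes. Correlations used 100000 permutations of clutches within groups or exact pairings within each group of 8, and levels used exact sign flips, in scipy 1.17.1 and numpy 2.4.6. The steps were tested on simulated data. The members and gene lists were chosen with earlier results of these data known. Genes named are the 4 members, list genes that the study's list names, for each member the 3 genes with the highest within-group r, and models within 20 kb. RefSeq's table held 0 Ensembl IDs and gave no names. Alternatives were other scalings, pseudocounts, filters, a covariate, a replicate block and clutches left out.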

Additional observations from a re-analysis of the deposited data

Results flagged for a closer look

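Of the 16 sets of 8 values examined (4 genes, CPM and FPKM, each group), 2 held a clutch that stood apart. The measure was the Dixon ratio of the gap to the nearest clutch over the whole range (critical value 0.526). By chance about 1 set in 20 exceeds that value, though the CPM and FPKM sets of a gene are not independent. In both sets the clutch was control clutch 15_2, which is present only in the control sets. For the groupXIX H1 gene 15_2 had 29.9 CPM, the next control clutch had 18.5 CPM and the ratio was 0.536. For the scaffold_561 H1 gene it had 7.33 FPKM, the next had 4.52 FPKM and the ratio was 0.690. The clutch also had the fewest reads in genes (8950867) and was the only control clutch whose structured RNA level was above 0.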

How the results depend on the processing

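The 4 genes were chosen by this contrast on these same clutches, so a kept direction was likely in advance. Over 168 alternative values, the fold changes of the 4 genes kept their direction. Of these, 4 moved by more than 1 SD, all on the logCPM scale, to -1.22 with voom and -1.28 as a ratio of mean CPM for the scaffold_561 H1 gene, and to 1.08 and 1.00 for H2AFJ, since neither carries the floor. Leaving out single clutches gave -0.65 to -0.46 for the scaffold_224 gene, -0.50 to -0.28 for the groupXIX gene, -0.34 to -0.25 for the scaffold_561 gene and 0.40 to 0.55 for H2AFJ on logCPM. The count of genes past FDR, which gives the background, was unstable. On logCPM the 90 genes became 21 with a constant prior variance, 15 with median-of-ratios scaling, 47 with the replicate block (the second number of the clutch name, whose meaning the labels do not give), 0 with the structured RNA covariate, and 7 (without control clutch 21_14 or 5_14) to 1233 (without exposed clutch 3_10) with single clutches left out. On FPKM the 65 models became 207 at a mean of at least 1 FPKM, 241 with a pseudocount of 0.1, 1 with median-of-ratios scaling, 35 with the replicate block, 0 with the covariate, and 0 (without exposed clutch 17_10 or 24_28) to 1550 (without 3_10). The structured RNA covariate was built from RNAs that this contrast selected, so the counts with it cannot separate their part from that of exposure. The second number of the clutch name is 14 only in control clutches and 10 only in exposed clutches, so the replicate block partly followed the groups. The cause of the unstable counts was not tested.

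Of the correlations on logCPM, the scaffold_224 and groupXIX H1 pair no longer passed in exposed clutches alone (0.44) or without the 2 clutches farthest from the median (0.61), and lay between 0.55 and 0.76 with single clutches left out. The groupXIX and scaffold_561 pair passed on FPKM (0.83) and on logCPM without control clutch 15_14 (0.76), and otherwise did not pass on logCPM with single clutches left out (lowest 0.30, without 15_2). The other pairs, near 0, changed sign. The scaffold_224 and scaffold_561 pair gave -0.0119 by Spearman, -0.44 in exposed clutches, -0.0383 without the 2 farthest clutches and -0.22 to 0.37 with single clutches left out. H2AFJ with the scaffold_224 gene gave -0.0505 with median-of-ratios scaling, -0.12 by Spearman, -0.15 in control clutches and -0.14 to 0.23 with single clutches left out. H2AFJ with the groupXIX gene gave -0.0238 by Spearman, -0.15 in control clutches and -0.0826 to 0.42. H2AFJ with the scaffold_561 gene gave 0.31 on FPKM, 0.0357 by Spearman, 0.18 in exposed clutches, 0.0783 without the 2 farthest clutches and -0.19 to 0.19. Among levels, 1 pair changed its call, the scaffold_224 gene over H2AFJ, at 0.99 on CPM per kilobase. The leave-one-out counts and correlations, and the covariate for the counts, were chosen after seeing the data. With 4 to 19 reads a clutch, the scaffold_561 gene is limited by depth.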
